A study of Mus musculus with 18 samples.

Results

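The genes described here are 6 complement genes, C3, C4b, Cfb, C1ra, Serping1 and Cd55, of the 19862 genes in the deposited table. They were picked by symbol, and the choice was made with measured values of these libraries known: earlier results had shown several of them higher after deletion of Prmt1. Their differences between knockout and control cells are therefore given as a description with no test. Of the 6 genes, 5 were above 0 in at least 3 libraries and entered the fit of 17515 genes, and Cd55 did not.

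The libraries come from Mus musculus osteosarcoma cells, from tumours of mice whose p53 and Rb genes were conditionally deleted. All cells carry floxed Prmt1 alleles (Prmt1 f/f) and a stably expressed CreER, a Cre recombinase that tamoxifen activates. Control cells (genotype "wild type" in the labels) received ethanol (ETOH), and knockout cells (Prmt1-/-) received Tamoxifen (4OHT). Strain, tissue and age are given alike for all groups as Mix background, osteosarcoma and postnatal day 299. Total RNA came from the cleared cytoplasm, and a sucrose gradient of that lysate gave a Light pool (messages on fewer than 3 ribosomes) and a Heavy pool (on more than 3). The 6 groups (3 kinds of RNA in control and knockout cells) have n = 3 libraries each. No cells without floxed alleles that received the drug are among them, so what the drug or Cre did and what the deletion did cannot be told apart. Whether a group's libraries stem from different cultures is not stated, so the p-values rest on the variation among these libraries alone, and that may be technical.

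Complement is a cascade of secreted proteases and binding proteins that marks cells and microbes for uptake or lysis. In the classical pathway the proteases C1r and C1s act together on C4 and C2. In the alternative pathway factor B, the product of Cfb, joins activated C3 to form a convertase that cleaves more C3. C1 inhibitor (Serping1) blocks C1r and C1s, and CD55, a GPI-anchored membrane protein also called decay-accelerating factor, takes convertases apart. The liver makes most circulating complement, but fibroblasts and cells of the bone lineage also transcribe complement genes, and interferon and the cytokines of the acute phase are known to raise several of them.

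Levels are given as CPM (reads of a gene scaled to a common library total), and the libraries hold 32255673 to 57948662 reads each. Prmt1 itself, which encodes the main asymmetric arginine methyltransferase, was below the control level by limma in knockout cells in Total (log2 change -0.72, SE 0.21, adjusted p = 0.0202) and in Heavy RNA (-1.88, SE 0.21, adjusted p = 7.87e-06), but was not called in Light RNA (-0.20, SE 0.21, adjusted p = 0.506). The floxed exons are not named in the labels, and any exon left in place still gives reads. In each fraction the knockout library numbered 1 was the most distant from the mean of its group, by 0.209 in Total, 0.241 in Light and 0.339 in Heavy (root mean square over genes, log2), against 0.124 to 0.244 for the other knockout libraries. The log2 changes of C3, C4b, Cfb and C1ra between knockout and control cells are given with and without it. Correlations are given with it only. Of 9 osteoblast markers, Col1a1, Col1a2 and Sparc were abundant, with medians of 1317, 1388 and 1183 CPM over the 9 control libraries, and Runx2 had a median of 72.1 CPM. The late osteoblast markers Ibsp and Bglap were at or near 0, with at most 0.0192 and 0.276 CPM in any library.

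C3, the protein on which the pathways converge, was nearly unread in control cells and clearly read in every knockout library. C3 lies on chromosome 17 (57203970 to 57228136, minus strand, mm10). In Total RNA it stood at 0.558, 0.345 and 0.549 CPM in the control libraries numbered 1 to 3 and at 44.3, 17.5 and 25.5 CPM in the knockout libraries. In Light RNA the control libraries had 0.293, 0.0204 and 0.129 CPM and the knockout libraries 37.6, 15.2 and 19.8 CPM. In Heavy RNA the control libraries had 0.301, 0 and 0.362 CPM and the knockout libraries 53.4, 15.5 and 19.7 CPM. The groups were far apart: the lowest knockout library was 31.4 times the highest control library in Total, 51.8 times in Light and 42.9 times in Heavy. The log2 change of CPM + 1 was 4.25 in Total, 4.36 in Light and 4.45 in Heavy (SE 0.39 each). On this scale it was the highest of the 17515 genes in each fraction. Because 1 CPM is added before the log, these values understate the ratio: the group means differed 60.1-fold in Total (57 against 3281 reads), 164-fold in Light (23 against 3459 reads) and 134-fold in Heavy (28 against 3382 reads). With 23 to 57 control reads, the size of the ratio is loosely known. The first place depends on the scale. In Total RNA Lcn2 reached a log2 change of 6.19 under an alternative fit, beside 5.82 for C3 with voom on the recovered reads. In bulk RNA such as this, more cells with the message and more message per cell cannot be told apart.

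C4b, which encodes the C4 that C1s cleaves, was also higher in each knockout library than in any control library, at a far lower level than C3. It lies on chromosome 17 (34728380 to 34743882, minus strand). In Total RNA it stood at 0.0532, 0.115 and 0.0916 CPM in control and 2.23, 0.625 and 1.08 CPM in knockout libraries. In Light RNA it stood at 0.155, 0.0409 and 0.0776 against 2.13, 0.891 and 0.671 CPM, and in Heavy RNA at 0.0754, 0 and 0.0226 against 3.09, 0.686 and 0.837 CPM. No knockout library fell within the control range, and the knockout library numbered 1 was highest in each fraction. The log2 changes were 1.03, 0.98 and 1.18 in Total, Light and Heavy (SE 0.29 each), and they rest on 11, 14 and 4 control reads against 146, 174 and 178 knockout reads. At such low levels the added 1 CPM sets much of the value: with voom, which works on the recovered reads, the log2 changes were 3.54, 3.59 and 5.17. Of the stretches of 50 bases in C4b transcripts, 34.6% also occur in C4a, so reads could have been divided between them.

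Cfb, the alternative pathway member, was present in control cells and higher in knockout cells by a smaller and more even amount. It lies on chromosome 17 (34856374 to 34862518, minus strand), with the start site of C4b at -118.6 kb. Its Total level was 2.87, 2.94 and 2.32 CPM in control and 4.98, 4.78 and 4.23 CPM in knockout libraries. Its Light level was 3.47, 3.09 and 3.10 against 5.65, 6.51 and 6.75 CPM, and its Heavy level 2.21, 2.88 and 2.62 against 5.02, 5.25 and 5.30 CPM. The ratio of means was 1.72, 1.96 and 2.02 in Total, Light and Heavy, and the log2 changes were 0.61, 0.79 and 0.80 (SE 0.11 each). Unlike C3 and C4b, Cfb had its highest Light and Heavy level in the knockout library numbered 3. An annotated readthrough model that joins C2 and Cfb (Gm20547) holds 73.0% of the 50-base stretches of Cfb, and how such reads were counted is not stated.

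C1ra, which encodes the protease C1r, had the highest CPM of the 6 genes in each of the 18 libraries. It lies on chromosome 6 (124512405 to 124523443, plus strand). In Total RNA it stood at 43.3, 59.5 and 47.3 CPM in control and 142, 88.1 and 93.0 CPM in knockout libraries. In Light RNA it stood at 21.6, 20.9 and 19.9 against 120, 68.9 and 73.1 CPM, and in Heavy RNA at 38.2, 47.0 and 40.9 against 209, 83.8 and 77.2 CPM. The groups did not overlap, and the ratio of means was 2.16 in Total, 4.196 in Light and 2.94 in Heavy. The log2 changes were 1.07, 1.97 and 1.38 (SE 0.30 each).

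Serping1 and Cd55, the regulators among the 6 genes, were at the edge of detection or below it. Serping1 (chromosome 2, 84765387 to 84775444, minus strand) had 0 to 2 reads in each control library and 2 to 12 reads in each knockout library. Its level was 0, 0.0192 and 0.0305 against 0.0879, 0.0961 and 0.220 CPM in Total, 0.0173, 0 and 0.0517 against 0.177, 0.334 and 0.0986 CPM in Light, and 0.0502, 0 and 0.0226 against 0.198, 0.0528 and 0.0620 CPM in Heavy RNA. The groups did not overlap, but in Heavy RNA the highest control and the lowest knockout library both had 2 reads and differed only in depth. The log2 changes were 0.16, 0.23 and 0.11 (SE 0.06 each; 2.41, 2.89 and 1.73 with voom), and no fold is given because the control groups hold 2 to 3 reads. Cd55 (chromosome 1, 130439027 to 130462744, minus strand) is listed at 0 in all 18 libraries, which allows a level of up to 0.0518 to 0.093 CPM (3 reads of each library, for counting error only).

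**Figure D1:**
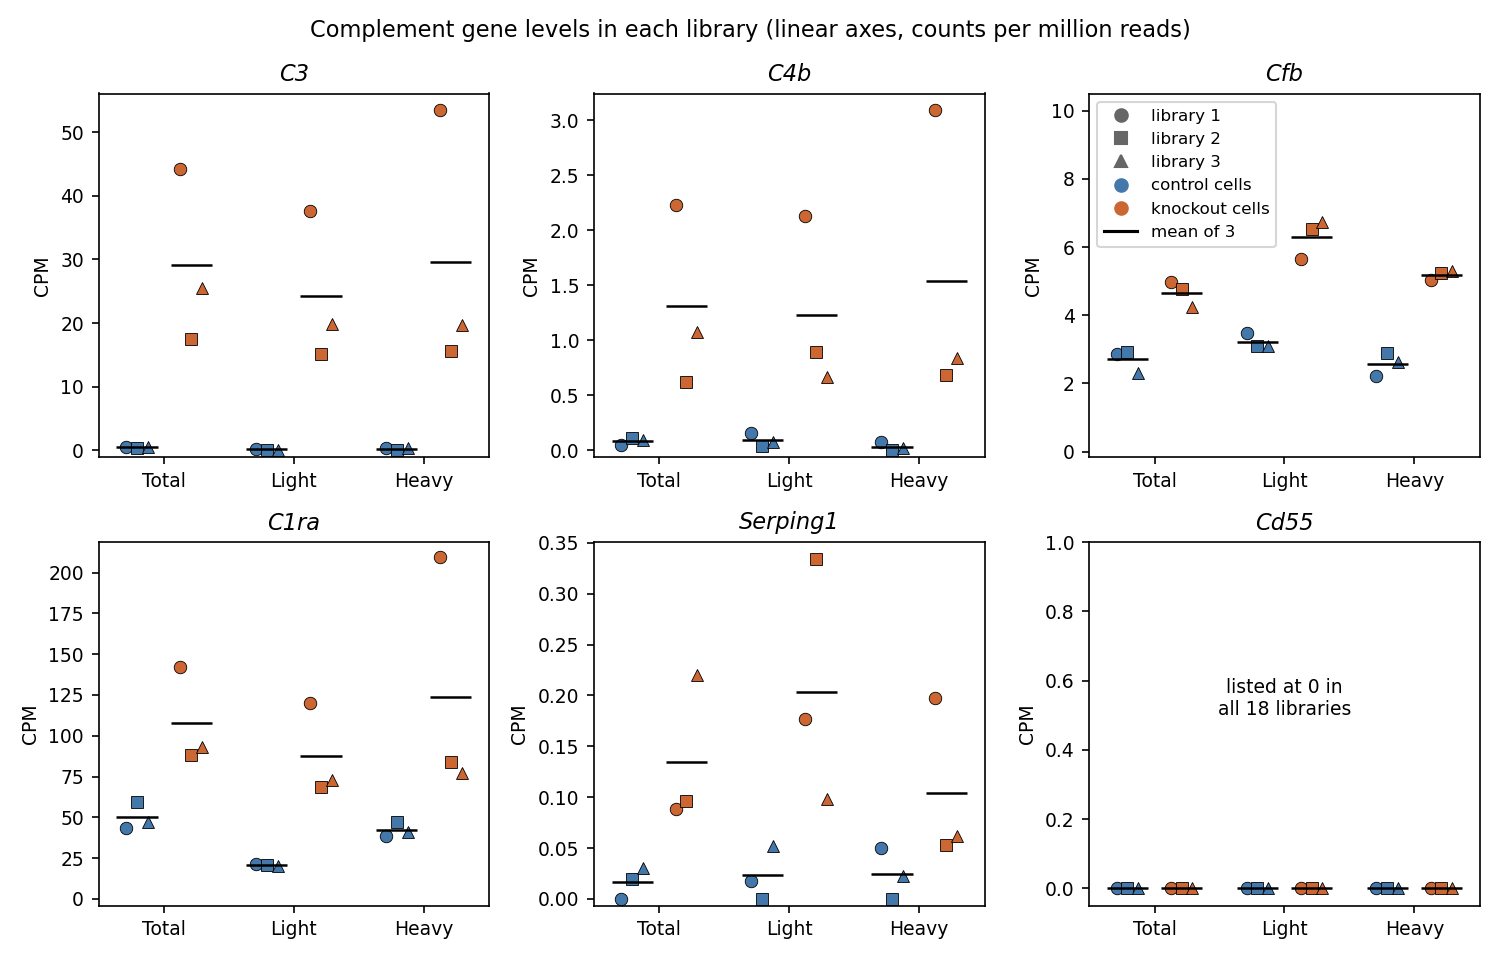
CPM (linear axes from 0) of the 6 genes in each of the 18 libraries, by fraction, with control cells in blue, knockout cells in orange, the library number as the symbol's shape and the mean of 3 as a bar. C3, C4b and C1ra were highest in the knockout library numbered 1 in each fraction (C3 at 44.3, 37.6 and 53.4 CPM), Cfb was even, and Cd55 is at 0.

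In each fraction, 5 of the 6 genes had all 3 knockout libraries above all 3 control libraries. Groups separated in this way for 24.4% of the 17515 genes tested in Total, 33.3% in Light and 24.1% in Heavy. Since these differences were known when the genes were chosen, nothing is read from the count. The median log2 change of the 5 genes was 1.03 in Total, 0.98 in Light and 1.18 in Heavy, beside 0.01, 0.05 and 0.02 over all genes tested. Without the 3 knockout libraries numbered 1 the log2 changes of C3 were 3.90, 4.01 and 3.93, those of C4b 0.76, 0.71 and 0.77, those of Cfb 0.57, 0.86 and 0.82, and those of C1ra 0.86, 1.72 and 0.93 in Total, Light and Heavy. Serping1 in Heavy RNA moved from 0.11 to 0.05.

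Levels per kilobase of exon put the genes in a common order. In Total RNA of knockout cells C1ra came first with a mean of 36.2 CPM per kb (29.6 to 47.7), then C3 with 5.66 (3.41 to 8.61), Cfb with 1.65 (1.50 to 1.76), C4b with 0.230 (0.110 to 0.391) and Serping1 with 0.0579 (0.0378 to 0.0947). No neighbours in this order overlapped over the 3 libraries. In Total RNA of control cells the order was C1ra with 16.8, Cfb with 0.959, C3 with 0.0942, C4b with 0.0152 and Serping1 with 0.00713 CPM per kb, where C4b (0.00933 to 0.0202) and Serping1 (0 to 0.0131) overlapped. C3 thus passed Cfb between control and knockout cells, and the other places stayed as they were. In Light and Heavy RNA of control cells C3, C4b and Serping1 overlapped in range, and in Light RNA of knockout cells C4b (0.118 to 0.374) and Serping1 (0.0424 to 0.144) did.

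Promoters are shown for the members that the RefSeq promoter table holds (GRCm38.p6, the same build as mm10), C3, C1ra and Cd55, because the first of these had the greatest difference, the second was the most abundant and the third is at 0. C1s1, whose protease is activated by C1r and whose gene lies next to C1ra, is added. Each sequence runs from 250 bases before to 50 bases after the annotated start, 5′ to 3′ on the gene's strand. Capitals mark matches, on either strand, to TTCNNNGAA (bound by STAT factors), GAAANNGAA (interferon regulatory factors), TTGCNNAA (C/EBP factors), TATAAA and an NF-kB motif. By RefSeq C1ra starts at 124512621, which is 216 bases downstream of the GENCODE start given above, and the other 3 genes have the same start in both. The positions are chr17:57228087-57228386 (minus strand) for C3, chr6:124512371-124512670 (plus strand) for C1ra, chr6:124542310-124542609 (minus strand) for the first listed start of C1s1 and chr1:130462695-130462994 (minus strand) for Cd55.
C3: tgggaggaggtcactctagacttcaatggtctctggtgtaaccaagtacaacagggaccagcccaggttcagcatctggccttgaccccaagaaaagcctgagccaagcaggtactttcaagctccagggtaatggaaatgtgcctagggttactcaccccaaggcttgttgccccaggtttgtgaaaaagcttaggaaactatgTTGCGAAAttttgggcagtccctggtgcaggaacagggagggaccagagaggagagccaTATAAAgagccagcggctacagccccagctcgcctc
C1ra: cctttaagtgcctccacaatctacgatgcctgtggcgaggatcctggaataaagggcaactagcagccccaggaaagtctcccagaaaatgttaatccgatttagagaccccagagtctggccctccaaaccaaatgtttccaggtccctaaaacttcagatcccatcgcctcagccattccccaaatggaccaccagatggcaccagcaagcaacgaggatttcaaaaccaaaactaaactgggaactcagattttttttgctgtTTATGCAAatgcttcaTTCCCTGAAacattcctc
C1s1: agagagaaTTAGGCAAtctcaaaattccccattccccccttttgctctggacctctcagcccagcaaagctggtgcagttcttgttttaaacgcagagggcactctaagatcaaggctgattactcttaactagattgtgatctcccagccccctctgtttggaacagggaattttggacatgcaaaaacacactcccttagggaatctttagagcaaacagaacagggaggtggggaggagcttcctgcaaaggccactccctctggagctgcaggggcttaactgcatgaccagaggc
Cd55: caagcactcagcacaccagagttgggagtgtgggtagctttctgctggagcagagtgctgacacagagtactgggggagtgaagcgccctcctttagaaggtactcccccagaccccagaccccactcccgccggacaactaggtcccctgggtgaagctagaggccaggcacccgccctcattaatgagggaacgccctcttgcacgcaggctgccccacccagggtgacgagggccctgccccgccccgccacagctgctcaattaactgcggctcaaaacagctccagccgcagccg

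The C3 window holds a C/EBP match 45 bases before the annotated start and a TATAAA 14 bases after it. The C1ra window holds a C/EBP match on the reverse strand and a TTCCCTGAA, which matches TTCNNNGAA on both strands, 16 and 32 bases after the RefSeq start, and the matches do not overlap. The C1s1 window holds a single C/EBP match, on the reverse strand, 242 bases before the start, and the Cd55 window holds none of the 5 motifs. Of the 32851 promoters of the same length in the table, 10.8% hold the C/EBP motif, 13.6% TATAAA, 8.3% TTCNNNGAA, 8.56% GAAANNGAA and 4.51% the NF-kB motif. A match is a run of letters, and no binding was measured here.

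**Figure D2:**
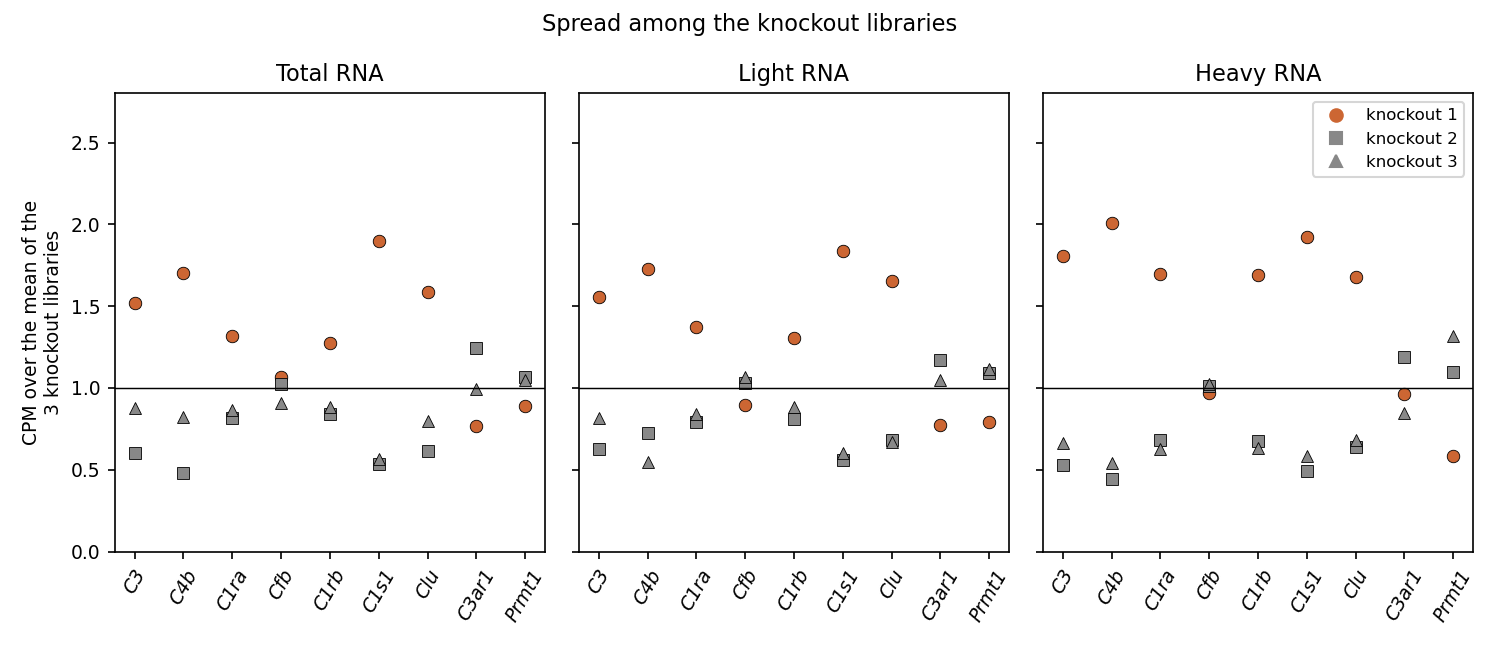
CPM of each knockout library divided by the mean of the 3 knockout libraries of its fraction (linear axis from 0), with the library numbered 1 in orange. The library numbered 1 is the highest for C3, C4b, C1ra, C1rb, C1s1 and Clu in each fraction and the lowest for Prmt1.

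The knockout libraries were not alike for these genes. The library numbered 1 exceeded the mean of the other knockout libraries 2.06-fold in Total, 2.15-fold in Light and 3.03-fold in Heavy RNA for C3, 2.62-, 2.73- and 4.06-fold for C4b, and 1.57-, 1.69- and 2.60-fold for C1ra. For Cfb the same ratio was 1.11, 0.853 and 0.952. Prmt1 was lowest in that library in each fraction, at 147 CPM against 176 and 173 CPM in Total, 166 against 229 and 235 CPM in Light, and 64.4 against 121 and 145 CPM in Heavy RNA. That the library with the least Prmt1 had the most C3, C4b and C1ra is seen in 1 library number only, and its part in the results was not tested. After the 6 group means were removed, the log2 values of C3 and C4b correlated at r = 0.951 over the 18 libraries, C4b and C1ra at 0.926 and C3 and C1ra at 0.852. The same r was -0.271 for C3 with Cfb, -0.238 for C4b with Cfb and -0.074 for C1ra with Cfb. These values describe 18 libraries that share lysates and fractions, and the knockout libraries numbered 1 are among them.

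The gradient asks where each message sat, on few ribosomes or on many, which the choice of the genes did not use. In control cells C1ra made up a greater share of Heavy than of Light RNA, at 38.2 to 47.0 CPM against 19.9 to 21.6 CPM. The log2 difference of Heavy over Light was 0.98 (SE 0.30, limma adjusted p = 0.0120), with no overlap between the libraries. C1ra was the only one of the 5 genes tested that limma called there, where 50.7% of all genes tested were called in either direction. The call held under 29 of 30 alternatives, with adjusted p from 2.55e-06 to 0.0596, and was lost when the trend of the values over coding length was removed (0.59, adjusted p = 0.0596). In knockout cells C1ra stood at 77.2 to 209 CPM in Heavy and 68.9 to 120 CPM in Light RNA, and the difference of 0.39 (SE 0.30, 95% interval -0.25 to 1.02) did not pass (adjusted p = 0.335). Without Heavy knockout 1 alone, with its Light partner kept, the difference was -0.07. The other knockout libraries stood at 83.8 and 77.2 CPM in Heavy and at 68.9 and 73.15 CPM in Light RNA. Each of these Heavy values was above each of these Light values. With a replicate block within control and within knockout cells, a choice made after seeing the data, the difference did pass (adjusted p = 0.0427). Each numbered Heavy library of knockout cells exceeded its Light partner.

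Cfb lay the other way, though limma did not call it. How many of all genes separate between Heavy and Light libraries was not counted. Each Heavy library was below each Light library, at 2.21 to 2.88 against 3.09 to 3.47 CPM in control cells and at 5.02 to 5.30 against 5.65 to 6.75 CPM in knockout cells. The log2 difference of Heavy over Light was -0.24 (SE 0.11, limma adjusted p = 0.0788) in control cells and -0.24 (SE 0.11, adjusted p = 0.0966) in knockout cells, so neither passed. Both passed without the mean-variance trend (adjusted p = 0.0299 and 0.0396) and with the coding-length trend removed (0.00190 and 0.0114). For C3 the difference was 0.08 in control cells (95% interval -0.75 to 0.92) and 0.17 in knockout cells (-0.66 to 1.00), and for C4b it was -0.08 (-0.70 to 0.54) and 0.12 (-0.50 to 0.74). All 4 intervals include 0, and differences within them were not detectable. Without Heavy knockout 1 alone, with its Light partner kept, the difference in knockout cells was -0.35 for C3 and -0.29 for C4b. Without the 3 knockout libraries numbered 1 it was -0.0143 for C4b. For C3 the other knockout libraries stood at 15.5 and 19.7 CPM in Heavy and at 15.2 and 19.8 CPM in Light RNA. Serping1 differed by 0.00 in control cells and by -0.12 in knockout cells (SE 0.06, adjusted p = 0.134), where it passed without Heavy knockout 1 (0.0338), without Light knockout 3 (0.0288) or without the 3 knockout libraries numbered 1 (0.0408). In knockout cells none of the 5 genes was called (1 at an unadjusted p under 0.05, 0 by voom), where 43.6% of all genes were.

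**Figure D3:**
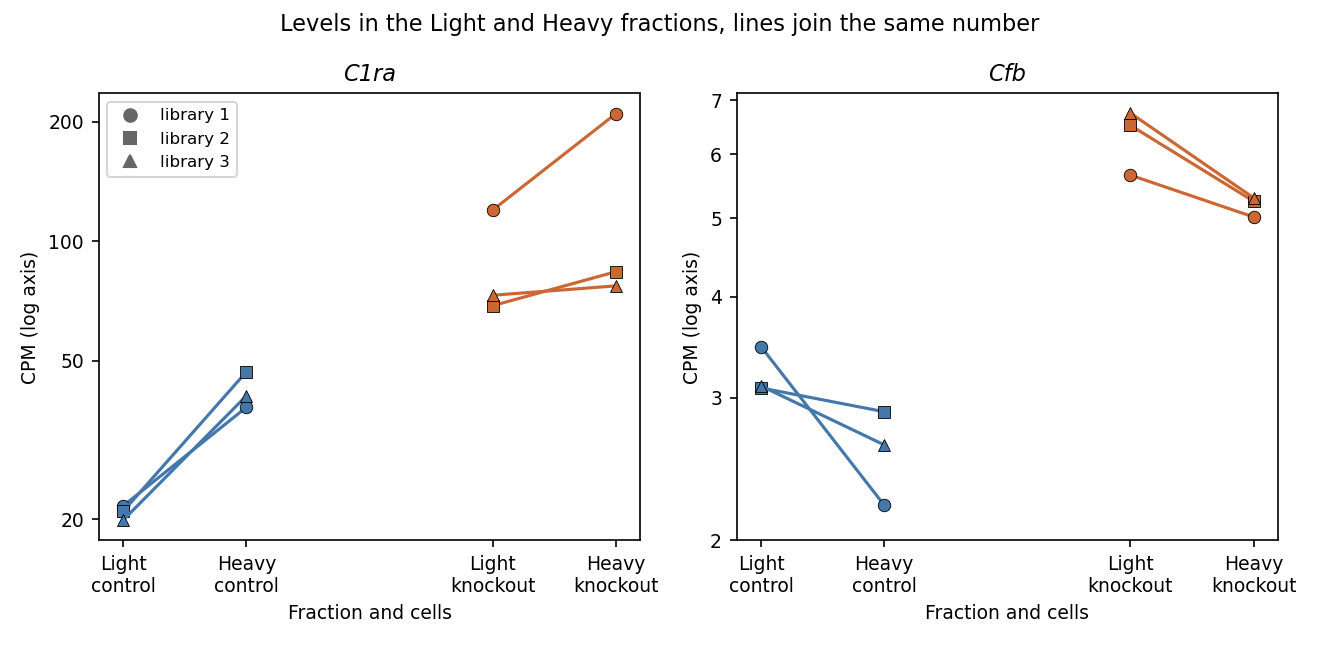
CPM (log axes of different range) of C1ra and Cfb in the Light and Heavy libraries of control and knockout cells, with lines joining libraries of the same number. C1ra is higher in Heavy than in Light along each line (19.9 to 21.6 up to 38.2 to 47.0 CPM in control cells) and Cfb is lower along each line.

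Whether the difference between knockout and control cells depended on the fraction was asked with interaction terms. None of the 5 genes passed for Heavy over Light, where 2.87% of all genes passed, for Heavy over Total (0.0114%, 2 genes) or for Light over Total (0%, 0 genes of 17515, with 2851 at an unadjusted p under 0.05 and 0 by voom). At an unadjusted p under 0.05 the 5 genes gave 0 in each of the 3 interactions, and voom also called 0. The greatest value was that of C1ra, whose difference was greater in Light than in Total RNA by 0.90 (SE 0.43, 95% interval -0.00 to 1.81, adjusted p = 0.309) and smaller in Heavy than in Light RNA by a log2 value of -0.59 (SE 0.43, adjusted p = 0.587). Without the 3 knockout libraries numbered 1 both passed, at 0.87 (adjusted p = 0.0234) and -0.80 (adjusted p = 0.0127), and the second also passed without Heavy knockout 1 alone (-1.05, adjusted p = 0.0355). For C3 the interaction of Heavy over Light was 0.09 (95% interval -1.09 to 1.26) and for C4b 0.20 (-0.67 to 1.07). For Cfb it was 0.01 (-0.32 to 0.34), the narrowest interval apart from that of Serping1.

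The other complement genes, listed by role, were tested between knockout and control cells. Of 55 genes listed, 45 are in the table and 37 were tested. In Total RNA 14 rose and 3 fell, where 16.1% of all genes tested rose and 10.3% fell. In Light RNA 13 rose and 2 fell (26.8% and 12.7% of all genes), and in Heavy RNA 10 rose and 3 fell (18.5% and 10.4%). The median log2 change of the 37 genes was 0.05, 0.04 and 0.05, and many of them were near 0 reads. Over all genes the split of calls depended on the scaling: 60.9% of calls were higher in Total, 67.9% in Light and 64.1% in Heavy RNA, beside 48.9%, 47.3% and 49.1% after quantile normalization and 53.7%, 46.2% and 44.6% after median-of-ratios scaling, which moved the median of genes at 1 CPM or more from 0.14 to -0.06 in Light and from 0.05 to -0.11 in Heavy RNA. The list was drawn up with earlier results of these data known, so its counts are not independent evidence.

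Of 6 classical pathway genes tested, 5 rose in Total, 6 in Light and 5 in Heavy RNA, beside 16.1%, 26.8% and 18.5% of all genes, and none fell. They are not independent, since C1rb shares sequence with C1ra, C1s1 with C1s2 and C4a with C4b. C1s1, listed under its older symbol C1s and encoding the protease that cleaves C4 and C2, stood at 1.46, 2.40 and 1.46 CPM in Total control and 30.2, 8.46 and 8.998 CPM in Total knockout libraries. Its log2 change was 2.39 in Total (SE 0.49, limma adjusted p = 0.00179), 2.68 in Light (adjusted p = 0.000447) and 2.47 in Heavy (adjusted p = 0.00122). C1rb, the paralog of C1ra, rose by 1.02, 1.93 and 1.39 in Total, Light and Heavy (SE 0.28 each), and C1rl, a C1r-like protease, by 0.91, 1.32 and 0.83 (SE 0.27 each). Without Total knockout 1 the Total calls of C1rb (adjusted p = 0.0720) and C1rl (0.110) were lost, as they were without Total control 1 (0.0516 and 0.0847). The Heavy call of C1rl (adjusted p = 0.0304) was lost under 6 of 29 alternatives, among them quantile normalization (0.0619) and leaving out Heavy knockout 1 (0.161). C1s2 rose by 1.37, 1.40 and 1.04 (SE 0.34 each), with the Heavy call lost under 5 of 29 alternatives, among them leaving out Heavy knockout 1 (adjusted p = 0.164). C4a, the second C4 gene of the mouse, rose by 0.65, 0.66 and 0.57 (SE 0.12 each) at a mean of 0.62 CPM. At that level the added 1 CPM sets much of the value. Under the alternatives it ranged from 0.39 to 1.40 in Total, 0.47 to 2.09 in Light and 0.48 to 2.86 in Heavy RNA. C2 was called in Light RNA only (0.15, SE 0.05, adjusted p = 0.0278) at a mean of 0.0767 CPM, a call lost under 5 of 28 alternatives.

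Of the lectin pathway, 2 of 6 genes tested rose in Total and Light and 1 in Heavy RNA. Of all genes tested, 16.1%, 26.8% and 18.5% rose in Total, Light and Heavy, so little is read from these counts. Masp1, a protease that circulates with the lectins, rose from 13.7 ± 0.705 to 18.8 ± 1.05 CPM in Total, from 12.4 ± 0.192 to 20.7 ± 2.19 CPM in Light and from 19.3 ± 3.17 to 31.4 ± 5.37 CPM in Heavy RNA (SD, n = 3; limma adjusted p = 0.0199, 0.000514 and 0.000821). The Total call of Masp1 was lost without Total control 1 (0.0719) or Total knockout 3 (0.0702). The span of Masp1 overlaps that of the coding gene Rtp4, and how reads in the overlap were counted is not stated. Ficolin A (Fcna) rose in Total (0.53, SE 0.09) and Light RNA (0.43, SE 0.09) at a mean of 0.261 CPM. Masp2 and the scavenger collectin Colec12 were not called (adjusted p = 0.119 to 0.480 and 0.146 to 0.442). Neither alternative pathway gene of the list was called: properdin (Cfp) differed by 0.00, -0.05 and -0.03, and factor D (Cfd) had 9 reads in all. The terminal pathway gene Hc, which encodes C5, was called in Total RNA (0.11, SE 0.04, adjusted p = 0.0496) on 20 reads in all 18 libraries, a call lost under 22 of 28 alternatives.

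Among regulators, clusterin (Clu), a soluble inhibitor of the terminal complex, rose most. It stood at 1.60, 1.30 and 1.34 CPM in Total control and 19.3, 7.43 and 9.68 CPM in Total knockout libraries, with log2 changes of 2.34, 2.78 and 2.39 in Total, Light and Heavy (SE 0.36 each; limma adjusted p = 0.000164, 2.01e-05 and 0.000121). The other 4 soluble regulators tested were not called and had 8 to 20 reads in all. Of the membrane regulators, Cd59a, whose GPI-anchored product blocks the terminal complex, rose from 3.51 ± 0.162 to 8.90 ± 1.65 CPM in Total (SD, n = 3; 1.12, SE 0.15, adjusted p = 4.14e-05), and by 0.64 in Light and 0.66 in Heavy RNA. Its paralog Cd59b rose in Total (0.70, SE 0.13) and in Light RNA (0.39, SE 0.13), the latter call lost under 7 of 28 alternatives. Cr1l, the membrane regulator known as Crry, was the most abundant at a mean of 28.6 CPM, and it fell in Heavy RNA (-0.41, SE 0.13, adjusted p = 0.0229) but was not called in Total (-0.15) or Light (-0.01). That call was lost without Heavy control 2, Heavy control 3 or Heavy knockout 3 and with only the libraries compared (adjusted p = 0.0591 to 0.0919). Cd46 and Csmd2 fell in Total and Susd4 in Light RNA, at means of 0.0745, 0.0312 and 0.226 CPM, and these calls were lost under 1, 13 and 5 of 28 alternatives.

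Among receptors, C3ar1, the receptor of the C3a fragment, rose in each fraction and was not highest in the knockout library numbered 1. It stood at 3.08, 2.69 and 2.99 CPM in Total control and 8.65, 14.1 and 11.2 CPM in Total knockout libraries (1.63, SE 0.17, limma adjusted p = 3.98e-06), and rose by 1.49 in Light and 1.39 in Heavy RNA. Itgb2, the beta chain of complement receptors 3 and 4, rose by 0.88, 0.91 and 1.22 (SE 0.15 each), from 0.0663 to 0.966 CPM on average in Total RNA, while its alpha chains Itgam and Itgax had 21 reads each in all 18 libraries, with Itgax called in Total RNA (0.15, SE 0.03). Cd93, once described as a C1q receptor, fell by 1.15 in Total, 0.84 in Light and 0.81 in Heavy RNA on the log2 scale (SE 0.14 each), from 2.703 ± 0.505 to 0.666 ± 0.115 CPM in Total (SD, n = 3). C1qbp, a mitochondrial protein that binds the heads of C1q, fell in Heavy RNA (-0.42, SE 0.11, adjusted p = 0.00974), a call lost with only the libraries compared (0.0937). The interactions with fraction were called for 0 of the 37 genes (3, 6 and 6 at an unadjusted p under 0.05 for Heavy over Light, Heavy over Total and Light over Total, 0 by voom).

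**Figure D4:**
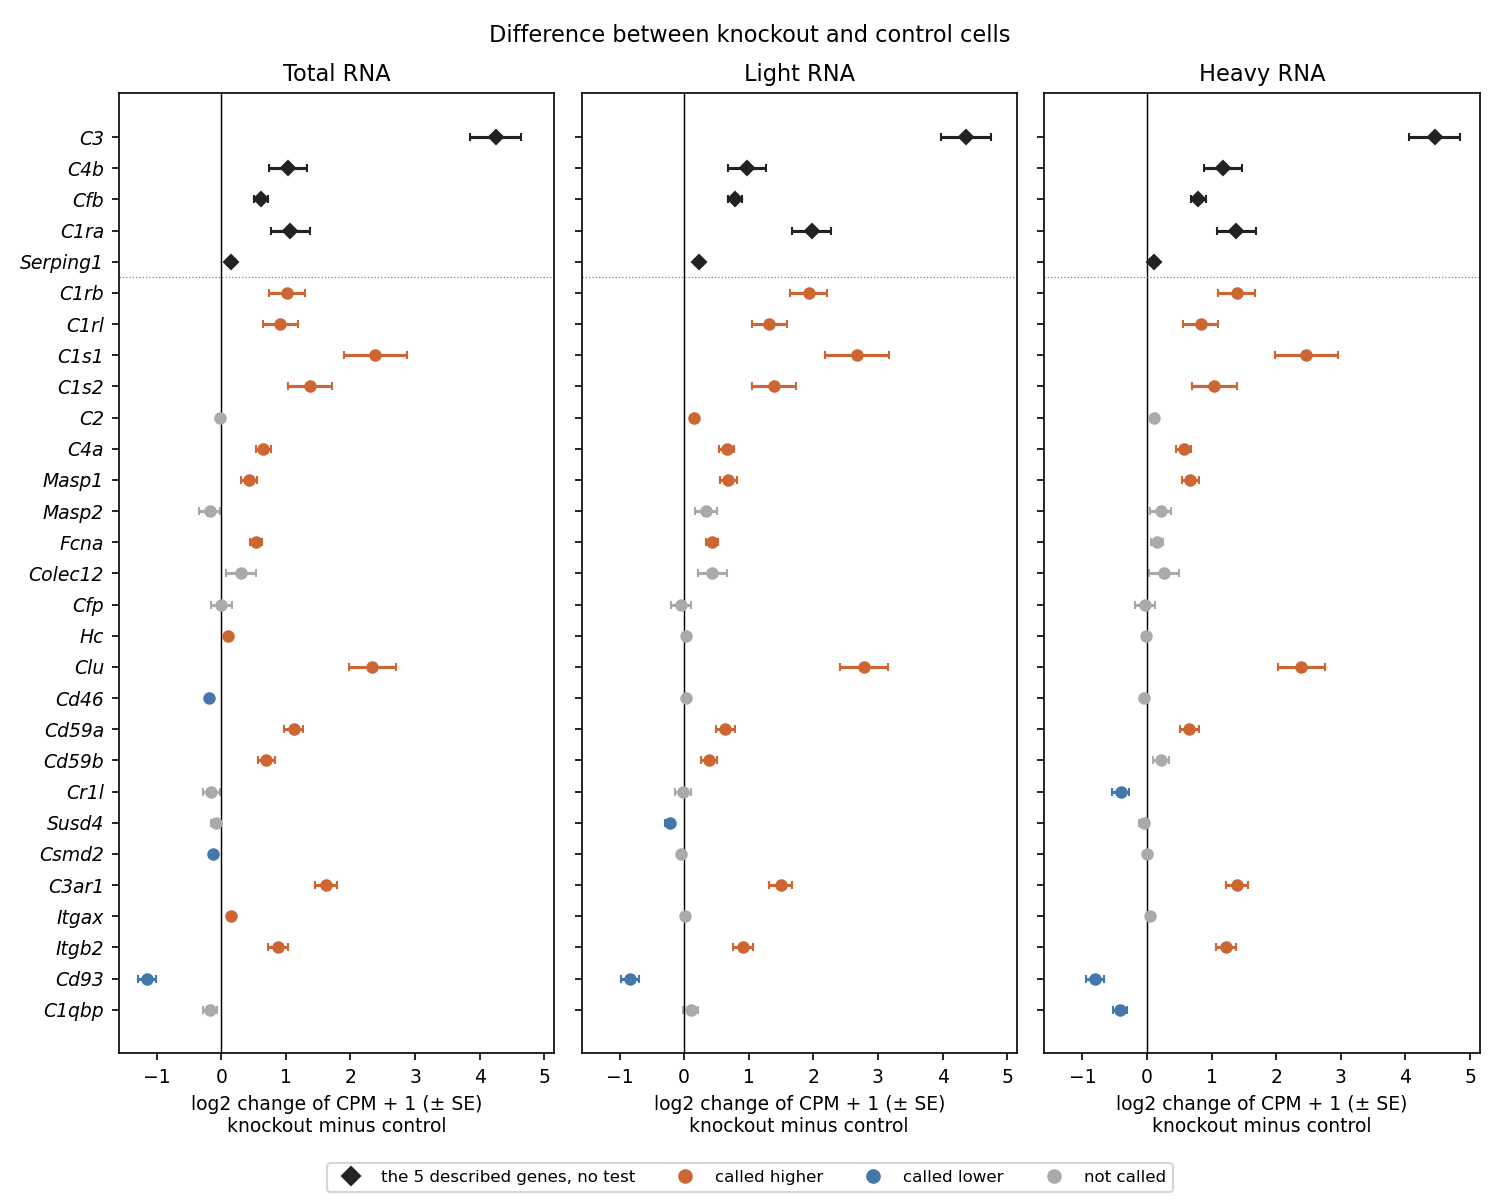
Log2 change of CPM + 1, knockout minus control, with its SE from the fit of 18 libraries, for the 5 members with values (black, no test) and the other complement genes that were called or averaged 1 CPM or more. C3 lies farthest right in each fraction (4.25, 4.36 and 4.45), C1s1 and Clu lie farthest right of the tested genes, and Cd93 lies farthest left.

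C1ra sits in a cluster of 5 genes, with the start site of C1rl at -19.3 kb from its own and those of C1s1, C1rb and C1s2 at 30.0, 57.9 and 123.7 kb. All 5 were higher in knockout cells in each fraction, by 0.83 to 2.68 on the log2 scale, with C1ra itself given as a description. The nearest genes outside the cluster within 150 kb were Clstn3 and Pex5, whose start sites lie at -47.6 and -97.3 kb. Pex5, a peroxisomal import receptor, differed by 0.04 in Total (limma adjusted p = 0.846) and 0.21 in Heavy (0.2), and rose by 0.93 in Light RNA (1.47e-05). Clstn3, a synaptic cadherin-like gene at a mean of 0.150 CPM, rose by 0.14 in Total (0.0429) and 0.32 in Heavy (9.88e-05) and differed by -0.10 in Light RNA (0.0944). The difference between C1ra and these neighbours was not tested. C1ra and C1rb share sequence: 48.0% of the 50-base stretches of C1ra occur in C1rb, and the levels of C1ra and C1rb kept a ratio of 2.11 to 2.37 (median 2.23) in all 18 libraries, so whether both genes or 1 of them is read cannot be told apart. C1s1 and C1s2 share 21.8% of the stretches of C1s1.

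**Figure D5:**
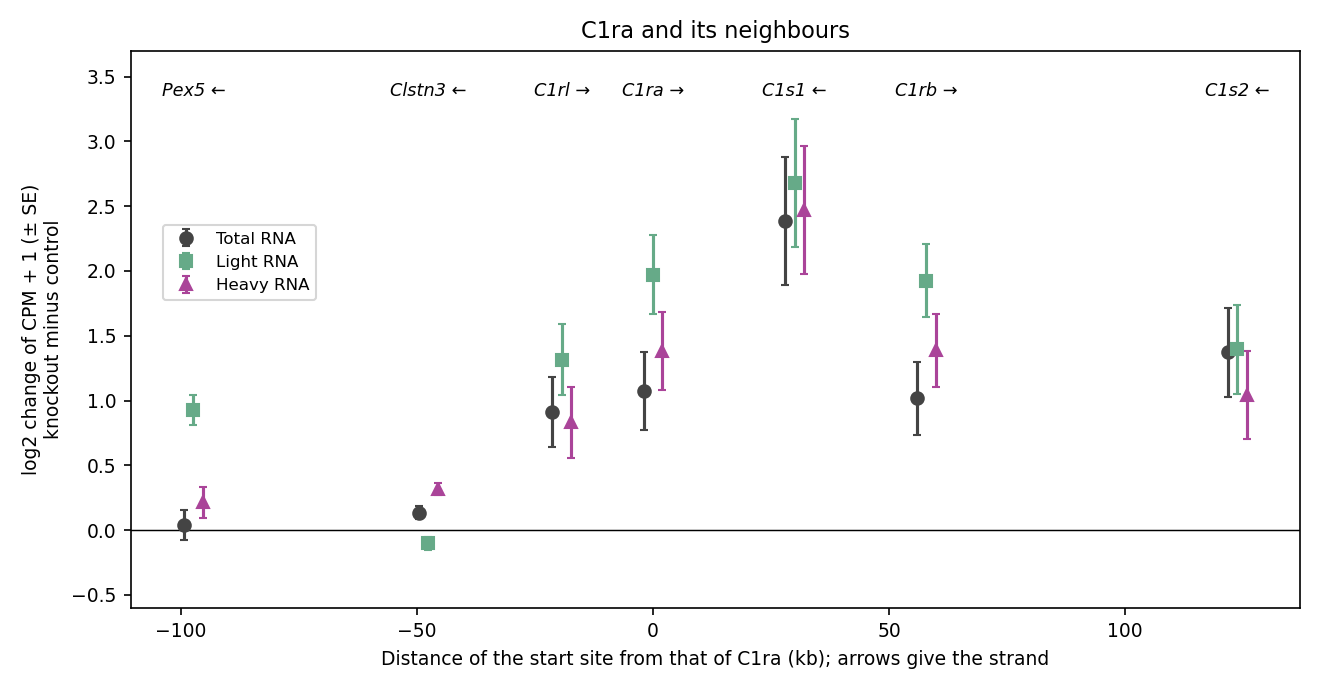
Log2 change of CPM + 1 (± SE), knockout minus control, of C1ra and of the genes around it in Total, Light and Heavy RNA, against the distance of each start site from that of C1ra in kb, with arrows for the strand. The 5 C1r and C1s genes lie at 0.83 to 2.68, above Clstn3 in each fraction and above Pex5, which reaches 0.93 in Light RNA.

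On chromosome 17 the genes around Cfb and C3 differed in direction. Around Cfb, C4b and C4a were higher in knockout cells as described, whereas C2, 35.7 kb from Cfb by start site, differed by -0.02, 0.15 and 0.11. Genes between them did not share a direction in Total RNA: Cyp21a1, next to C4a, rose by 0.59 (SE 0.18, limma adjusted p = 0.0222), Dxo fell by 0.41 on the log2 scale (SE 0.13, adjusted p = 0.0240), and Stk19 differed by 0.02 (adjusted p = 0.962). Around C3, the nearest read genes Gpr108 and Trip10 differed by 0.19 and -0.07 in Total RNA (adjusted p = 0.198 and 0.699) and by -0.04 and -0.13 in Heavy RNA (0.819 and 0.382), and both rose in Light RNA, by 0.47 and 0.66 (0.00211 and 0.000105). These neighbours were chosen by distance after values had been seen.

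The genes whose log2 values followed each member most closely over the 18 libraries were searched among 11602 genes that averaged 1 CPM or more. C3 was followed by Msln (r = 0.993), a surface glycoprotein, and by the interferon-induced GTPases Igtp (0.993) and Gbp2 (0.988). C4b was followed by Lbp (0.982), which binds bacterial lipopolysaccharide, by C1s1 (0.973) and by the interferon-induced Oasl2 (0.972). C1ra was followed by C1rb (0.999), with which it shares sequence, then by the basement membrane gene Nid2 (0.987) and the protocadherin Pcdhb22 (0.986). Cfb was followed by the linker histone H1f2 (0.964), Cadm4 (0.961) and Slc36a1 (0.960). Serping1, with 62 reads in all, reached at most 0.841, with Fosb. With the group means removed, so that only the spread within groups counts, C3 went with Oasl2 (0.965), Parp10 (0.961) and Ndrg1 (0.955), C4b with the class I molecule H2-K1 (0.969), and Cfb with Lrrc14b (0.807) at most. High values are common in 18 libraries of 6 groups, and they carry no test.

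Markers of other cells that make or bear complement proteins were read in the same libraries. Of 8 hepatocyte markers 6 are in the table, and Alb, Ahsg and Apoa1 did not exceed 0.0384 CPM in any library, while the summed level, mostly Apoa2, was 1.29 to 7.15 CPM in control and 1.53 to 6.16 CPM in knockout libraries. The 10 macrophage markers summed to 6.67 to 10.2 CPM in control and 12.1 to 23.1 CPM in knockout libraries, mostly Csf1r, Cd68 and Cd14. Of 9 tested, 5 rose in Total, 4 in Light and 3 in Heavy RNA, beside 16.1%, 26.8% and 18.5% of all genes. Csf1r, Cd68 and Lyz2 did not overlap between the 9 control and 9 knockout libraries, with medians of 3.95 and 8.37, 1.04 and 3.17, and 0.0280 and 0.671 CPM. Csf1r separated narrowly, with at most 4.51 CPM in control and at least 4.55 CPM in knockout libraries. Within a fraction, 24.1% to 33.3% of all genes tested had every knockout library above every control library. The defining markers Ptprc, Adgre1 and Aif1 did not exceed 0.0721 CPM, nor Cx3cr1 and Fcgr1 0.0985 CPM, and Mrc1 had medians of 0.0532 and 0 CPM. The 7 epithelial markers in the table summed to 3.85 to 10.3 CPM in control and 14.7 to 27.2 CPM in knockout libraries, the 7 endothelial markers to 0.0679 to 0.336 and 0.528 to 1.47 CPM, the 6 lymphocyte markers to 0 to 0.0754 and 0.0264 to 0.469 CPM, and the 7 osteoclast markers to 3.495 to 13.6 and 8.13 to 13.8 CPM. The 9 osteoblast markers summed to 2330 to 6125 and 4560 to 13180 CPM. Of 8 osteoblast markers tested, 4 rose and 2 fell in Total, 5 rose and 1 fell in Light, and 4 rose and 1 fell in Heavy RNA. Of all genes, 16.1%, 26.8% and 18.5% rose and 10.3%, 12.7% and 10.4% fell. Sp7 and Runx2 had lower medians in knockout libraries, at 5.37 and 1.67 and at 72.1 and 45.4 CPM. Alpl and Spp1 were among those with higher ones, at 7.94 and 27.1 and at 19.7 and 29.3 CPM. The macrophage, epithelial and endothelial sums did not overlap between control and knockout libraries. How many of all genes separate over 9 against 9 libraries was not counted. The part of any of these lists in the results was not tested.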

How the data were processed

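RNA-seq of 18 libraries was used as the table the authors deposited, whose values are log2(CPM + 1) per gene. STAR, edgeR and mm10 are named in the submitters' processing notes, while for the read counter, the annotation and strandedness the sources used here give nothing. CPM was recovered from the deposited log2 values, and its steps gave whole reads for 100% of values (tolerance 0.1 read), from which the depths of 32255673 to 57948662 reads follow.

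The deposited log2(CPM + 1) values were fitted with limma 3.58.1 in R 4.3.3 (trend, robust, means of 6 groups, all 18 libraries, pseudocount of 1 CPM), over the 17515 genes above 0 in at least 3 libraries. A call is a Benjamini-Hochberg adjusted p under 0.05 over all of these, and every adjusted p is from this fit or the named alternative. Pooling the groups gives each gene 1 SE. The members and all gene lists were chosen with earlier results of these data known. Named genes are the other complement genes called in any fraction or with a mean of at least 1 CPM, and for the context lists those with the lowest adjusted p in Total. The 150 kb neighbourhood and the 50-base sequence sharing were added after seeing the data.

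Replicate numbers come from the labels. Same-numbered Heavy and Light libraries deviated together (r of 0.324 to 0.412 for control cells, 0.276 to 0.602 for knockout cells), so a replicate block was run as an alternative to the unblocked fit reported for Heavy against Light. Between knockout and control cells same-numbered libraries did not do so throughout (r of -0.161 to 0.558 in Total, -0.068 to 0.083 in Light and -0.453 to -0.233 in Heavy). In Total, 4 of 6 went best with their own number. Same-numbered Light and Total libraries of knockout cells deviated together (r of 0.434 to 0.642), while those of control cells varied (-0.647 to 0.355). The interactions reported are from the unblocked fit. The alternatives were other scalings, pseudocounts and filters, voom, limma without trend, only the libraries compared, a replicate block, removal of the trend over coding length, and leaving out libraries. Intervals and limits from reads cover counting error only.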

Additional observations from a re-analysis of the deposited data

How the results depend on the processing

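No result that passed its test changed sign under any alternative run. Of the counts of calls, 253 values stayed within 1.5 times or on the same side, and the exceptions follow. With genes required to average 1 CPM, fewer genes are tested, and 9 other complement genes were called in Total and 9 in Light RNA. Among the members, Heavy against Light called 2 in control cells and 1 in knockout cells without the mean-variance trend, and 1 in knockout cells with the coding-length trend removed. A replicate block within control and knockout cells gave 1 call in knockout cells (C1ra), and changed no other count of member calls. Without the 3 knockout libraries numbered 1 there was 1 call for Heavy against Light in knockout cells (Serping1), 1 for the interaction of Heavy over Light and 1 for that of Light over Total (both C1ra). With 1 library left out at a time, the first of these counts and the interaction of Heavy over Light each ranged from 0 to 1, and the other complement genes called ranged from 13 to 18 in Total, 12 to 15 in Light and 10 to 13 in Heavy RNA. Where no reason is given, the cause was not tested. The groups of members that did not overlap numbered 15 of 18, and 14 after quantile normalization, median-of-ratios scaling or removal of the length trend. Of the members' described log2 changes, 32 values moved by more than the spread between libraries, none in sign. With voom or a pseudocount of 0.1 CPM those of C3, C4b, Cfb and Serping1 were greater in each fraction (12 values each, up to 7.70 and 6.67). Those of Cfb were smaller with quantile normalization (0.42, 0.56 and 0.57 in Total, Light and Heavy), median-of-ratios scaling (0.61 in Light, 0.67 in Heavy) and the coding-length trend removed (0.53 in Light, 0.63 in Heavy), as was that of C1ra in Light RNA with the last (1.57). C4b and Serping1 rest on 4 to 14 and 2 to 3 control reads a group, and Cd55 has no reads.

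Among results that did not pass, 27 changed sign, in 74 values of which 0 passed (limma, or voom where named), and the cause was not tested. With the coding-length trend removed the sign changed for Serping1 (-0.0036) in Heavy against Light in control cells, C4b (-0.0159) in Heavy against Light in knockout cells, C3 (-0.0505) in the interaction of Heavy over Light, C4b (0.17) and Cfb (-0.0128) in the interaction of Light over Total, Cfp (-0.0637) in knockout against control in Total and Csmd2 (-0.0173) in knockout against control in Heavy. With median-of-ratios scaling the sign changed for Cfp (-0.0307) in knockout against control in Total, C1qbp (-0.12) in knockout against control in Light and Csmd2 (-0.0029) in knockout against control in Heavy. With a pseudocount of 0.1 CPM the sign changed for C3 (-0.082) in the interaction of Heavy over Light and Csmd2 (-0.0126) in knockout against control in Heavy. With quantile normalization the sign changed for C4b (0.0376) in the interaction of Light over Total, Cfp (-0.19) in knockout against control in Total, Cd46 (-0.0055) in knockout against control in Light and Masp2 (-0.0251) and Csmd2 (-0.0198) in knockout against control in Heavy. With voom the sign changed for C4b (0.0505) in the interaction of Light over Total, Cfp (-0.0211) in knockout against control in Total and Csmd2 (-0.16) in knockout against control in Heavy. Without the 3 knockout libraries numbered 1 the sign changed for C4b (-0.0143) in Heavy against Light in knockout cells, C3 (-0.073) and Cfb (-0.0388) in the interaction of Heavy over Light, Cfp (-0.0593) in knockout against control in Total, Cfp (0.0811) in knockout against control in Light and Csmd2 (-0.0227) in knockout against control in Heavy. With 1 library left out at a time, values that changed sign had the following ranges. Heavy against Light in control cells ranged from -0.0019 to 0.22 for C3 and from -0.0163 to 0.022 for Serping1. Heavy against Light in knockout cells ranged from -0.35 to 0.53 for C3, from -0.29 to 0.39 for C4b and from -0.0706 to 0.64 for C1ra. The interaction of Heavy over Light ranged from -0.43 to 0.45 for C3, from -0.21 to 0.47 for C4b and from -0.068 to 0.0695 for Cfb. The interaction of Heavy over Total ranged from -0.31 to 0.55 for C3, from -0.26 to 0.42 for C4b, from -0.14 to 0.57 for C1ra and from -0.11 to 0.0027 for Serping1. The interaction of Light over Total ranged from -0.24 to 0.46 for C3, from -0.32 to 0.22 for C4b and from -0.0036 to 0.14 for Serping1. Knockout against control in Total ranged from -0.0755 to 0.0242 for C2 and from -0.0593 to 0.0566 for Cfp. Knockout against control in Light ranged from -0.15 to 0.13 for Cfp and from -0.16 to 0.0833 for Cr1l. Knockout against control in Heavy ranged from -0.11 to 0.0709 for Cfp, from -0.0213 to 0.0125 for Hc, from -0.11 to 0.0348 for Susd4 and from -0.0227 to 0.0121 for Csmd2.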

Other observations

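Genes of the signalling known to raise complement transcription, and other acute-phase genes, were tested as 2 further lists. Of 27 cytokine and signalling genes tested, 13 rose and 2 fell in Total, 16 rose and 2 fell in Light, and 13 rose and 1 fell in Heavy RNA. Of all genes, 16.1%, 26.8% and 18.5% rose and 10.3%, 12.7% and 10.4% fell. The list had median log2 changes of 0.48, 0.78 and 0.60. The 4 with the lowest adjusted p in Total RNA were Relb, an NF-kB subunit (0.92 in Total, SE 0.12, limma adjusted p = 1.92e-05), Socs3, a feedback inhibitor of cytokine signalling (0.55, SE 0.09, adjusted p = 0.000271), Cebpb, a C/EBP factor of the acute phase (1.13, SE 0.19, adjusted p = 0.00036), and Irf1, an interferon regulatory factor (1.03, SE 0.22, adjusted p = 0.00209). Each of the 4 also rose in Light and Heavy RNA. The genes that fell, named after their values were seen, were the interleukin 1 receptor Il1r1 (-0.52, -0.48 and -0.57 in Total, Light and Heavy, SE 0.16 each) and Nfkbiz, a nuclear IkB protein, in Total (-0.79, SE 0.17) and Light RNA (-0.87, SE 0.17). The cytokine genes, named here after their values were seen, were scarce: Ifnb1 had 4, Tnf 3 and Il6 340 reads in all 18 libraries. Of 11 acute-phase genes tested, 7 rose in Total, 7 in Light and 6 in Heavy RNA (of all genes 16.1%, 26.8% and 18.5%), and none fell. Ptx3, a pentraxin that binds C1q, was the most abundant of them at a mean of 784 CPM and rose by 1.01, 1.67 and 1.00 (SE 0.12 each). Lcn2, an iron-sequestering lipocalin, rose by 1.84, 1.86 and 1.63 (SE 0.27 each), haemopexin (Hpx) by 1.06, 0.97 and 0.53 (SE 0.10 each) and orosomucoid 1 (Orm1) by 1.02, 1.05 and 0.92 (SE 0.21 each). Lcn2, Hpx and Orm1 had means of 1.37, 0.58 and 0.59 CPM, where the added 1 CPM sets much of the value. In Total RNA their log2 changes reached 6.19, 3.46 and 4.47 under an alternative.

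These lists, too, were drawn up with earlier results of these data known.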
